A study of Mus musculus with 13 samples.

Results

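The glycolysis and hypoxia-response genes described here are 35 genes of mouse brain, taken by name from the rows of the 4 deposited group tables, out of 21056 genes present in all 4 tables. They comprise 18 glycolytic enzymes, 4 regulators of glycolysis, 4 glucose and lactate transporters, 4 oxygen sensors and hypoxia-inducible factors, and 5 further targets of those factors. The study profiled brain RNA by RNA sequencing in male mice after transient middle cerebral artery occlusion (tMCAO), a model of ischaemic stroke in which a filament blocks the artery for 60 min before reperfusion, or after sham surgery, with or without prior loss of microglia. The 13 libraries fell into 4 groups, namely tMCAO_MG_DE (occluded, microglia depleted, 2 libraries), tMCAO_MG_CON (occluded, microglia kept, 4 libraries), sham_MG_DE (sham, depleted, 4 libraries) and sham_MG_CON (sham, kept, 3 libraries).

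All groups, controls included, carried CX3CR1creER/+ :Rosa26iDTR/+, which places a diphtheria toxin receptor under a tamoxifen-activated Cre driven from Cx3cr1, and all received 2 doses of tamoxifen at 7 to 8 weeks of age. The labels number the Rosa allele differently from library to library, and this was read as 1 genotype. Depleted mice received diphtheria toxin at 50 ng/g on 3 days, starting 30 days after tamoxifen, and control mice received saline. Cx3cr1 is active in microglia and also in other mononuclear phagocytes, so the driver is not confined to microglia. The surgery text gives an age of 6 to 8 weeks. This conflicts with tamoxifen at 7 to 8 weeks and toxin from 30 days later, before surgery, so the age at surgery is uncertain. Neither the interval between occlusion and sampling nor the brain region is given in the sources used here. The treatment label of tMCAO_MG_CON replicate 4 reads sham surgery, against its title, and the library was kept under its title. In that library the transcript of Hmox1, a heme oxygenase gene induced by injury, stood at 34.7 CPM (counts scaled to library size), against 4.43 to 6.16 CPM in the 3 sham_MG_CON libraries.

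Libraries held 16239763 to 22080367 counts over genes. The mitochondrial share of counts was 7.84% to 8.74% with depletion (6 libraries) and 9.03% to 9.86% without (7 libraries). The summed level of 12 homeostatic microglia markers was 67.3 to 77.3 CPM in tMCAO_MG_DE, 423.0 to 525.9 CPM in tMCAO_MG_CON, 52.8 to 96.4 CPM in sham_MG_DE and 362.0 to 395.9 CPM in sham_MG_CON, and none of the 12 was at 0 in any group. All 12 were lower at an edgeR adjusted p under 0.05 in both comparisons of depleted with control brains. A list of 12 monocyte and macrophage markers summed to 59.3 to 78.5 CPM in tMCAO_MG_DE, 34.8 to 90.0 CPM in tMCAO_MG_CON, 54.5 to 61.1 CPM in sham_MG_DE and 11.7 to 20.6 CPM in sham_MG_CON. Of the libraries, 2 stood apart in 10 neutrophil markers, sham_MG_DE replicate 3 at 36.8 CPM and sham_MG_CON replicate 2 at 45.3 CPM, against 2.38 to 16.8 CPM elsewhere. Ly6g was at 0 in tMCAO_MG_CON and Cxcr2 at 0 in sham_MG_CON. In 10 astrocyte markers tMCAO_MG_DE replicate 1 summed to 2233 CPM and sham_MG_DE replicate 2 to 1645 CPM, against 3358 to 4669 CPM in the others. In bulk tissue, fewer cells of a type and less RNA per cell cannot be told apart.

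Glycolysis splits glucose into pyruvate in the cytosol. Hexokinase, phosphofructokinase and pyruvate kinase catalyse its regulated steps, and lactate dehydrogenase interconverts pyruvate and lactate. When oxygen falls, prolyl hydroxylases of the EGLN family stop marking the hypoxia-inducible factor alpha subunits for destruction, and these factors then bind short DNA elements near glycolytic, glucose transporter and vascular genes and raise their transcription. The brain depends on a steady glucose supply across the blood-brain barrier, and neurons, astrocytes, endothelium and microglia use different isoforms of several of these enzymes and carriers.

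The recognition core of hypoxia-inducible factors is ACGTG or GCGTG, and the promoters of 5 of the 14 called members, picked with their results known as 1 hexokinase, 1 lactate dehydrogenase, 1 regulator, 1 carrier and 1 oxygen sensor, are shown with every match to these letters, on either strand, in capitals. Each sequence runs from 250 bases before to 50 bases after the annotated start, 5′ to 3′ on the gene's strand, from RefSeq promoters of GRCm38.p6. The promoters of Pgk1 and Vegfa, textbook targets of these factors, are set beside them; neither was called in the edgeR fit of all 13 libraries, and both were called under some alternative settings given below.
Hk2 promoter, chr6:82774405-82774704, - strand: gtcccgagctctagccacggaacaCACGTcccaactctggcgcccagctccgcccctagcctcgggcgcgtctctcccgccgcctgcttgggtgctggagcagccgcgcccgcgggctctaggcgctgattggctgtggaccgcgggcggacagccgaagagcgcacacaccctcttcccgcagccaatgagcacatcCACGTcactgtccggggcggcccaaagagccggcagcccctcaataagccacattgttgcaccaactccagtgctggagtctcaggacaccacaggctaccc
Ldha (first listed start) promoter, chr7:46845554-46845853, + strand: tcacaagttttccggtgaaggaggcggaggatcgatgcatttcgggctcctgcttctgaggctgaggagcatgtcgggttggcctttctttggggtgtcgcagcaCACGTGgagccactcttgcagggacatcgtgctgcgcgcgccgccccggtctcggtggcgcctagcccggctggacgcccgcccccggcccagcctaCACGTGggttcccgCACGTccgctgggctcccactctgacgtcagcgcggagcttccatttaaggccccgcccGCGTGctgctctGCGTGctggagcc
Pfkfb3 (first listed start) promoter, chr2:11553880-11554179, - strand: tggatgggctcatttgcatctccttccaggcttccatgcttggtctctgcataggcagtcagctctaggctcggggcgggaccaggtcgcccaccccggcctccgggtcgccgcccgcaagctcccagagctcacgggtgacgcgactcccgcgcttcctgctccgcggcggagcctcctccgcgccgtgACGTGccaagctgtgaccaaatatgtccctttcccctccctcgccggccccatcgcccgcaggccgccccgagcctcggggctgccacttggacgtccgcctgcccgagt
Pfkfb3 (other listed start) promoter, chr2:11502041-11502340, - strand: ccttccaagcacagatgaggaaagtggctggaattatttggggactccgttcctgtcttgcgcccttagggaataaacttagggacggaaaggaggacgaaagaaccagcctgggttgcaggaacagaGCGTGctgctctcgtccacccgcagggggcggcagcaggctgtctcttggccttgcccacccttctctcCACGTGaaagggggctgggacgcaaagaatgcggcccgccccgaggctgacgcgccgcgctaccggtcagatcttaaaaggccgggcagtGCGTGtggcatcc
Slc2a1 promoter, chr4:119108495-119108794, + strand: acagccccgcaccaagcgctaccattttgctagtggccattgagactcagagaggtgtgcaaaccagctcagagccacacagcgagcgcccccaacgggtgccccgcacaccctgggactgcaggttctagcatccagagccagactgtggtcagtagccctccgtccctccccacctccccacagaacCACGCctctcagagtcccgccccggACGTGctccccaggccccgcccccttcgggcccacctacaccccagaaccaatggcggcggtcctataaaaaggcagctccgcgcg
Egln1 promoter, chr8:124949205-124949504, - strand: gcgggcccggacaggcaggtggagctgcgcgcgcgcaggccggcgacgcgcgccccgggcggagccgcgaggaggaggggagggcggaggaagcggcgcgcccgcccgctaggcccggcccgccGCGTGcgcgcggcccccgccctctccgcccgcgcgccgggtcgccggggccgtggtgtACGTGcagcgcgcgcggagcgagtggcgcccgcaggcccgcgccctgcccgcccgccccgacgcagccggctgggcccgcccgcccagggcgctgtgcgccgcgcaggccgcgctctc
Pgk1 promoter, chrX:106186850-106187149, + strand: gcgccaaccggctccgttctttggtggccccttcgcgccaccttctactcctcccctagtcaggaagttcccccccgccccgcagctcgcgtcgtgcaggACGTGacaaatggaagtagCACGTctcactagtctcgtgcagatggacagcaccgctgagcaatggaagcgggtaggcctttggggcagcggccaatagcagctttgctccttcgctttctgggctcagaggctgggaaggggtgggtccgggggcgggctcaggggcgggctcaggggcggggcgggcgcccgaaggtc
Vegfa (first listed start) promoter, chr17:46032328-46032627, - strand: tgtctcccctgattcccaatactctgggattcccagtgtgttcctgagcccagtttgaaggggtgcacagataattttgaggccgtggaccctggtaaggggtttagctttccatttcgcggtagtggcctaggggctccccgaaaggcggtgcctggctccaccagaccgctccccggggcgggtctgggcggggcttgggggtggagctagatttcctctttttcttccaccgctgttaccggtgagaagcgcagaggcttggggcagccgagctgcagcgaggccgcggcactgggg
Hk2 held 2 matches, both ACGTG, Slc2a1 and Egln1 held 2 each, and the first listed promoter of Ldha held 7 matches, counting an overlapping pair at each of its 2 copies of CACGTG. Pgk1 held 2, and the first listed promoter of Vegfa held none. The other listed promoter of Vegfa (chr17:46025114-46025413, not printed) held 2, 1 of each core. That window lies within the span of the Vegfa gene (chr17:46016993-46032369), and sequence outside the listed windows was not searched. The other listed promoter of Ldha, not printed, held 2. Among called members not printed, Hk3 and Ldhb held 1 each, Pgam1, Hif1a and P4ha1 3 each and each listed promoter of Eno1 2, while the listed promoters of Hk1 held 0 and 5. Over all 32851 promoters of that length, 43.8% held at least 1 of the 2 cores, 19.6% held ACGTG, 32.4% held GCGTG and 7.15% held CACGTG. Among 49 promoters of the members 81.6% held at least 1. Of 33 members with a promoter entry 90.9% had a match in at least 1 listed promoter. That share is per gene, and the share per gene over all genes was not computed. No promoter entry was used for Slc2a3 and Epas1. GC content ran up to 86.0% in Egln1, and the part of base composition in these shares was not tested. A match describes letters in a window and shows no binding.

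Per unit of transcript length, as deposited in FPKM (fragments per kilobase, scaled to library size), the members spanned more than 3 orders of magnitude. Pkm, which encodes pyruvate kinase, averaged 409.8 FPKM over the 13 libraries, followed by Ldhb at 189.4 FPKM, Pgam1 (phosphoglycerate mutase) at 186.1 FPKM and Aldoa (aldolase A) at 167.5 FPKM. At the low end stood Hk2 at 0.664 FPKM, Hk3 at 0.373 FPKM and Slc16a3, the lactate exporter MCT4, at 0.287 FPKM. The low members varied most between libraries, since the highest CPM was 31.2 times the lowest for Hk3 and 9.94 times for Hk2, but 1.15 times for Pkm and 1.17 times for Gapdh. Together the 18 enzymes took 0.722% ± 0.0138 of counts in tMCAO_MG_DE (SD, n = 2), 0.739% ± 0.0158 in tMCAO_MG_CON (n = 4), 0.685% ± 0.0239 in sham_MG_DE (n = 4) and 0.713% ± 0.00807 in sham_MG_CON (n = 3).

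**Figure D1:**
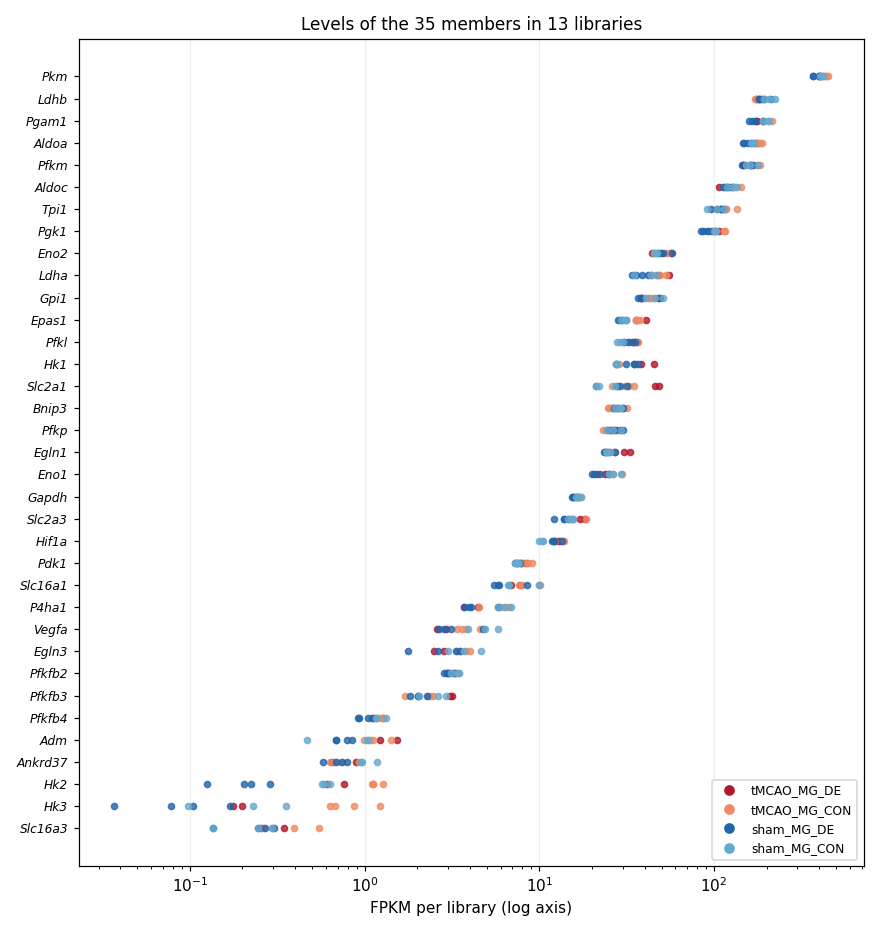
Level of each of the 35 members in each of the 13 libraries, in FPKM on a log axis, ordered by the mean over libraries and coloured by group. Most enzymes form tight clusters of points, from 369.1 to 447.4 FPKM for Pkm, while Hk2 and Hk3 spread widely, from 0.037 to 1.22 FPKM for Hk3.

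Some levels are uncertain because the sources used here do not give the counting tool or how it treated repeated sequence. In the GRCm38 annotation, 82.5% of 50-base windows of Gapdh occur in another gene, 215 of the sharing genes being pseudogenes. The share was 72.2% for Eno1, 68.0% for Pgk1, 62.4% for Bnip3, 41.5% for Pgam1 and 34.4% for Pkm, and 0.0% for Hk2 and Hk3. Gapdh was listed at 16.4 FPKM on average, below Tpi1 at 110.3 FPKM and Pgk1 at 99.6 FPKM. By CPM the gap was smaller, with 133.3 to 156.1 CPM for Gapdh over all libraries. Tpi1 had 370.9 to 509.6 CPM and Pgk1 257.1 to 339.8 CPM. The parts of gene length and of repeated sequence in the Gapdh level were not tested. Whether counting used strand is also unknown, and Hk1, Hk2 and Hk3 overlap the opposite-strand genes Hk1os, Gm17034 and Unc5a.

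Occlusion with microglia present (tMCAO_MG_CON against sham_MG_CON) raised Hk2, Hk3 and Hif1a and lowered Ldhb, and left 31 members without a call. The test was edgeR's quasi-likelihood test with Benjamini-Hochberg adjustment over 16940 genes, and a gene is called at an adjusted p under 0.05. The 4 calls, 3 higher and 1 lower, stand beside 8.44% of all genes called in this comparison, 5.14% higher and 3.31% lower. The median log2 fold change was -0.01 over the 35 members and 0.02 over all genes tested. For 7 members the groups did not overlap, as for 23.6% of all genes. The count was 1 without sham_MG_CON replicate 2 or 3, beside 5.97% and 3.33% of all genes. It was 2 without sham_MG_CON replicate 1 (3.94% of all genes) or tMCAO_MG_CON replicate 3 (5.54%).

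Occlusion after depletion (tMCAO_MG_DE against sham_MG_DE) raised 7 members and lowered none. They were Hk2, Ldha, Pfkfb3, the glucose transporters Slc2a1 and Slc2a3, the oxygen sensor Egln1 and the factor gene Epas1. In this comparison 12.4% of all genes were called, 6.59% higher and 5.84% lower. The median log2 fold change was 0.07 over the members, against 0.00 over all genes, and 11 members did not overlap between groups, as for 37.2% of all genes. The count was 4 without any 1 of sham_MG_DE replicates 2, 3 and 4, beside 9.91% to 11.7% of all genes. With only the compared groups in the fit, Ldha, Slc2a3, Egln1 and Epas1 were not called, beside 6.91% of all genes called.

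Depletion without occlusion (sham_MG_DE against sham_MG_CON) lowered Hk2, Pgam1, Eno1 and P4ha1 and raised Hif1a. Here 11.3% of all genes were called, 6.85% higher and 4.49% lower. The median log2 fold change of the members was -0.15, against 0.00 for all genes. Of the 35 log2 fold changes 28 were negative, against 8558 of 16940 over all genes. Groups did not overlap for 11 members, against 22.9% of all genes. With only the compared groups in the fit, Hk2 kept its call and Pgam1, Eno1, P4ha1 and Hif1a did not, beside 4.05% of all genes called. Without sham_MG_DE replicate 1 the count was 11 in place of 5, beside 22% of all genes in place of 11.3%. In addition Hk1 (log2 fold change 0.32) was higher and Hk3 (-1.64), Gpi1 (-0.32), Pgk1 (-0.24), Pkm (-0.16) and Vegfa (-0.79) lower. Without any 1 of sham_MG_DE replicates 2, 3 and 4 or sham_MG_CON replicates 1 and 3 the count was 1, beside 3.49% to 6.54% of all genes. It was 2 without sham_MG_CON replicate 2 (4.86% of all genes) and 3 without tMCAO_MG_CON replicate 4 (9.86%).

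Depletion in the occluded brain (tMCAO_MG_DE against tMCAO_MG_CON) raised Hk1, Pfkfb3, Slc2a1 and Egln1 and lowered Hk2 and Hk3. The background was 18.6% of genes called, 9.36% higher and 9.26% lower. The members' median log2 fold change was 0.03, against -0.01 for all genes, and 13 members did not overlap between groups, as for 45.5% of all genes. With 2 tMCAO_MG_DE libraries the calls rest on both, since leaving out either leaves a lone library that is assumed to vary like the other groups. The members' median log2 fold change was -0.04 without replicate 1 and -0.01 without replicate 2, against -0.03 and -0.01 over all genes. For occlusion after depletion the members' median was 0.11 without tMCAO_MG_DE replicate 1 and 0.06 without replicate 2, against -0.01 and -0.00 over all genes. The 4 comparisons share groups pairwise, so their values for a gene are not independent.

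**Figure D2:**
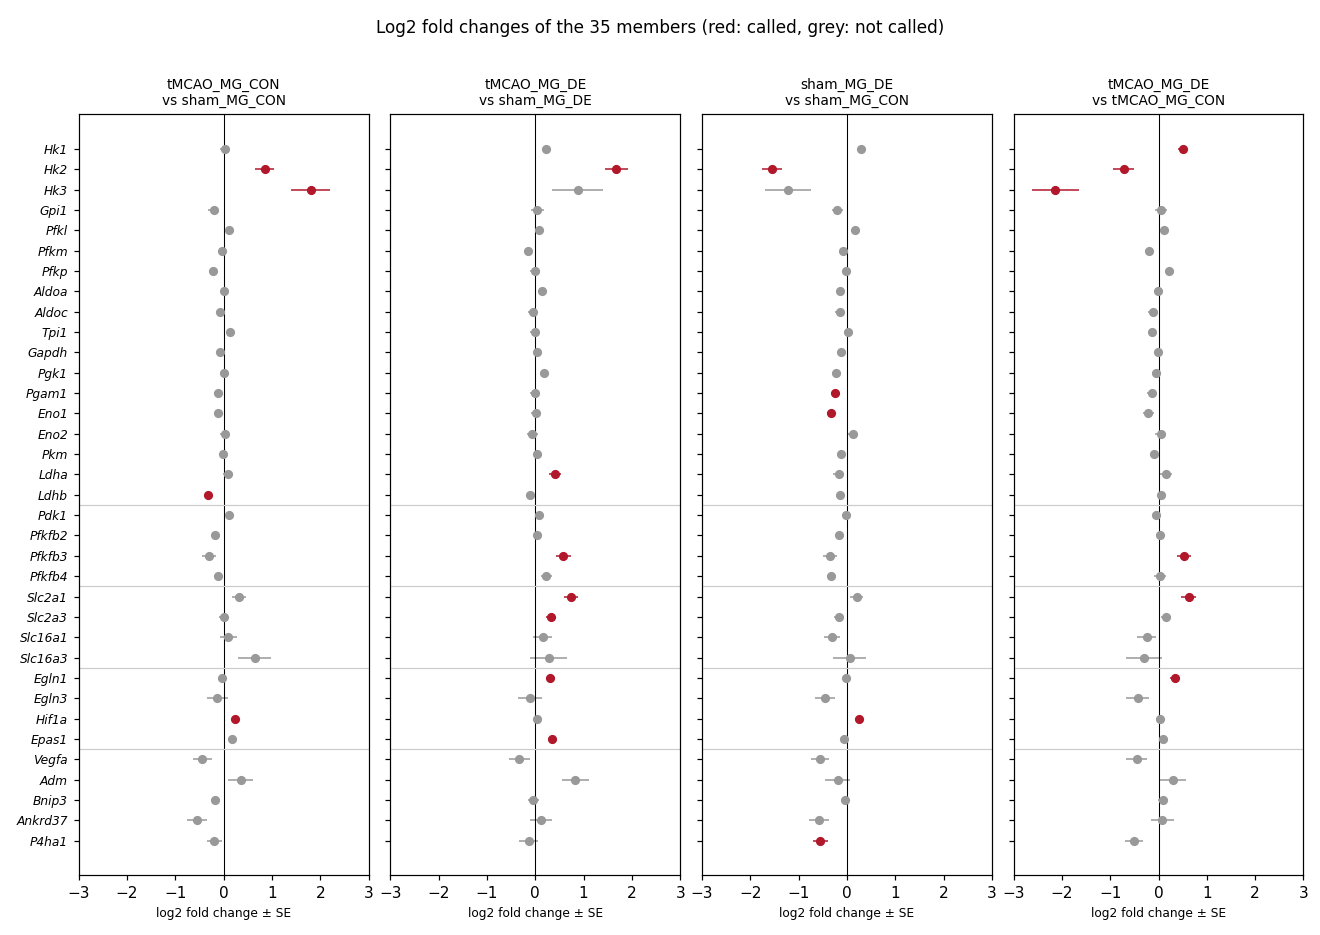
Log2 fold change with its standard error for the 35 members (rows, grouped by role) in the 4 comparisons, each panel titled by the groups compared, with called members in red. The hexokinases Hk2 and Hk3 lie furthest from 0, from 1.80 for Hk3 in the first panel to -2.14 in the last, and most other members lie close to 0.

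Hexokinase phosphorylates glucose and commits it to the cell, and the largest called log2 fold changes among the members were those of Hk3 and Hk2. Hk2, an isoform that hypoxia-inducible factors induce, had 5.17 and 4.15 CPM in tMCAO_MG_DE and 7.28, 8.58, 7.29 and 7.61 CPM in tMCAO_MG_CON. It had 1.46, 0.864, 2.01 and 1.54 CPM in sham_MG_DE and 4.18, 4.49 and 4.12 CPM in sham_MG_CON. No 2 of the groups compared overlapped, the level being higher in each occluded group than in its sham group and lower in each depleted group than in its control group. Occlusion raised Hk2 by a log2 fold change of 1.68 ± 0.23 (SE) after depletion (3.21-fold, edgeR adjusted p = 0.0011) and by 0.85 ± 0.20 with microglia present (1.80-fold, adjusted p = 0.018). Depletion lowered it 2.93-fold in sham brains (log2 fold change -1.55 ± 0.21, adjusted p = 0.0016) and 1.65-fold in occluded brains (-0.72 ± 0.22, adjusted p = 0.039).

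The interaction, the occlusion effect after depletion less that with microglia present, was 0.83 ± 0.30 for Hk2, and was not called (edgeR adjusted p = 0.41). The Hk2 calls for occlusion after depletion and for depletion in sham brains held under each of 22 alternative settings. The call for occlusion with microglia present was lost without sham_MG_CON replicate 1 (edgeR adjusted p = 0.07) or 3 (0.08). That for depletion in occluded brains was lost without tMCAO_MG_DE replicate 1 (0.092) or 2 (0.28), without any 1 of the 4 tMCAO_MG_CON libraries (0.052 to 0.074) and without sham_MG_CON replicate 3 (0.053). Hk2 rested on 19 to 179 counts per library. Hk2 lies on the minus strand of chromosome 6 (chr6:82725025-82774454, GRCm38, 20 merged exon blocks).

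Hk3, an isoform found mainly in myeloid cells, had 1.05 and 1.22 CPM in tMCAO_MG_DE and 5.13, 3.79, 7.12 and 4.12 CPM in tMCAO_MG_CON. Its level was 1.08, 0.636, 0.488 and 0.228 CPM in sham_MG_DE and 2.25, 1.44 and 0.621 CPM in sham_MG_CON, where the ranges overlapped. With microglia present it rose 3.47-fold after occlusion (log2 fold change 1.80 ± 0.41, edgeR adjusted p = 0.018), and depletion lowered it 4.41-fold in occluded brains (-2.14 ± 0.49, adjusted p = 0.012). Of 11 monocyte and macrophage markers tested, 6 were called higher in the first of these comparisons (median log2 fold change 1.26), and 4 were called higher and 3 lower in the other (median 0.74). Their part in the Hk3 differences was not tested. The first call was lost without tMCAO_MG_CON replicate 3 (edgeR adjusted p = 0.052), sham_MG_CON replicate 2 (0.055) or sham_MG_CON replicate 3 (0.078). The other was lost without tMCAO_MG_DE replicate 1 (0.089) or 2 (0.1). Occlusion after depletion gave 0.88 ± 0.53 and depletion in sham brains -1.22 ± 0.47, neither called (edgeR adjusted p = 0.31 and 0.11). Hk3 rested on 4 to 121 counts per library.

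Hk1, the main hexokinase of brain, had 463.0 and 555.7 CPM in tMCAO_MG_DE, 327.1 to 427.8 CPM in tMCAO_MG_CON, 405.3 to 457.5 CPM in sham_MG_DE and 349.4 to 361.2 CPM in sham_MG_CON. Both tMCAO_MG_DE libraries lay above every other library. Depletion raised Hk1 in occluded brains by 0.50 ± 0.10 on the log2 scale (1.42-fold, edgeR adjusted p = 0.0073), a call lost without tMCAO_MG_DE replicate 2 (0.36, adjusted p = 0.12). In sham brains the value was 0.29 ± 0.09 and was not called (edgeR adjusted p = 0.057), although those groups did not overlap. It was called there by DESeq2 (adjusted p = 0.038), by limma on log2(FPKM + 0.1) (0.049), with only the groups compared (edgeR, 0.043) and without tMCAO_MG_CON replicate 1 (0.029) or sham_MG_DE replicate 1 (0.033). By FPKM, Hk1 made up 97.9% ± 0.47 of the 3 isoforms in tMCAO_MG_DE (SD, n = 2), 93.6% ± 1.06 in tMCAO_MG_CON (n = 4), 99.1% ± 0.258 in sham_MG_DE (n = 4) and 97.1% ± 0.509 in sham_MG_CON (n = 3). The summed microglia markers, given above, were lower in each depleted group than in its control group. Between tMCAO_MG_DE and sham_MG_DE the marker sums overlapped and Hk2 did not. tMCAO_MG_DE (67.3 to 77.3 CPM of markers) and sham_MG_CON (362.0 to 395.9 CPM) differed in both occlusion and depletion. Their Hk2 levels overlapped, and this pair cannot separate occlusion from depletion. The part of the markers in the hexokinase differences with depletion was not tested.

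**Figure D3:**
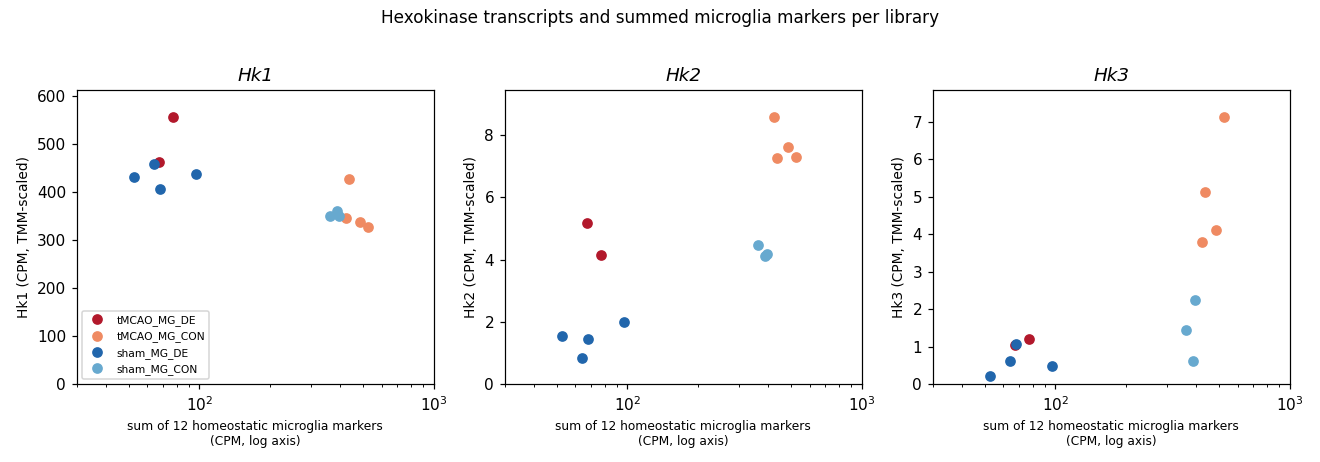
Level of Hk1, Hk2 and Hk3 (CPM, vertical axes) against the summed level of 12 homeostatic microglia markers (CPM, log axis) in each library, coloured by group. The depleted libraries sit at 52.8 to 96.4 CPM of markers and the control libraries at 362.0 to 525.9 CPM, and within either range Hk2 is higher in the occluded group.

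Among the enzymes between hexokinase and lactate dehydrogenase, Pgam1 and Eno1 were called and the rest were not. Gpi1 (phosphoglucose isomerase), Pfkl, Pfkm and Pfkp (phosphofructokinase subunits), Aldoa and Aldoc (aldolases) and Tpi1 (triose phosphate isomerase) were called in no comparison, with log2 fold changes from -0.23 to 0.22. Gapdh (glyceraldehyde phosphate dehydrogenase), Pgk1 (phosphoglycerate kinase), Eno2 (the neuronal enolase) and Pkm ranged from -0.22 to 0.17 and were not called either. The Pgk1 value with depletion in sham brains (-0.22 ± 0.07, edgeR adjusted p = 0.056) passed the threshold under 7 alternatives, among them DESeq2 (0.022), DESeq2 size factors in edgeR (0.049) and a filter of at least 1 CPM in 4 libraries (0.045), with no overlap between those groups. Pgam1 and Eno1 (the widely expressed enolase) were called in 1 comparison, as lower with depletion in sham brains. Pgam1 had 360.7, 293.1, 306.6 and 315.4 CPM in sham_MG_DE, against 385.6, 357.5 and 397.0 CPM in sham_MG_CON. Eno1 had 202.1, 175.4, 159.1 and 162.6 CPM in sham_MG_DE, against 240.0, 202.4 and 217.9 CPM in sham_MG_CON. The Pgam1 groups overlapped in 1 library and the Eno1 groups came within 1 CPM of each other. Pgam1 fell by 0.25 ± 0.08 on the log2 scale (edgeR adjusted p = 0.047) and Eno1 fell by 0.33 ± 0.09 (adjusted p = 0.035). The Pgam1 call was lost without any 1 of 9 libraries, both of tMCAO_MG_DE, tMCAO_MG_CON replicate 4, sham_MG_DE replicates 2, 3 and 4 and all of sham_MG_CON (edgeR adjusted p = 0.06 to 0.15). The Eno1 call was lost without sham_MG_DE replicates 2, 3 or 4 or sham_MG_CON replicates 1 or 3 (0.079 to 0.14). Enolase composition by FPKM was 29.9% ± 3.30 Eno1 in sham_MG_DE (SD, n = 4) and 36.8% ± 2.18 in sham_MG_CON (n = 3), without overlap.

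Each lactate dehydrogenase gene was called in 1 occlusion comparison, Ldhb as lower and Ldha as higher. Ldhb, the subunit that favours lactate use, had 347.4, 329.4, 333.9 and 351.4 CPM in tMCAO_MG_CON, against 422.9, 449.4 and 399.2 CPM in sham_MG_CON, with no overlap. It fell by 0.32 ± 0.07 on the log2 scale (edgeR adjusted p = 0.014), and the call was lost without sham_MG_CON replicate 2 (-0.27, adjusted p = 0.058). After depletion Ldhb had 362.3 and 342.4 CPM in tMCAO_MG_DE, against 356.9 to 422.6 CPM in sham_MG_DE, and was not called (-0.12 ± 0.08, edgeR adjusted p = 0.33). Ldha, the subunit that favours lactate production and a textbook target of hypoxia-inducible factors, had 248.5 and 218.4 CPM in tMCAO_MG_DE, against 200.6, 178.1, 167.7 and 157.4 CPM in sham_MG_DE. It rose by 0.41 ± 0.12 on the log2 scale (edgeR adjusted p = 0.046). That call was lost without either tMCAO_MG_DE library (0.3 and 0.11), tMCAO_MG_CON replicate 2 or 4, sham_MG_DE replicates 2, 3 or 4 or sham_MG_CON replicate 3 (0.053 to 0.087). With microglia present Ldha had 191.5 to 232.5 CPM in tMCAO_MG_CON, against 164.7 to 220.8 CPM in sham_MG_CON (0.09 ± 0.11, not called, edgeR adjusted p = 0.69). Ldha made up 22.1% ± 0.885 of the 2 subunits by FPKM in tMCAO_MG_DE (SD, n = 2), 21.0% ± 1.86 in tMCAO_MG_CON (n = 4), 16.4% ± 1.52 in sham_MG_DE (n = 4) and 16.8% ± 2.75 in sham_MG_CON (n = 3), and every occluded library lay above every sham library. These shares were not tested. Among 10 neuron markers, 2 (Snap25 and Syt1) were called lower in each occlusion comparison. Of the 10, 2 had positive values with microglia present and 3 after depletion. The part of these markers in the Ldhb difference was not tested.

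Of the regulators, Pfkfb3 was called and the others were not. Pfkfb3 is the PFKFB isoform with the highest kinase activity, which makes the allosteric activator of phosphofructokinase. It had 59.1 and 57.7 CPM in tMCAO_MG_DE, 43.1, 31.2, 44.5 and 43.3 CPM in tMCAO_MG_CON, 35.5, 43.0, 39.1 and 38.5 CPM in sham_MG_DE and 51.8, 39.5 and 57.9 CPM in sham_MG_CON. Both tMCAO_MG_DE libraries lay above both groups they were compared with, and the highest sham_MG_CON library lay between them. Pfkfb3 rose 1.5-fold after occlusion in depleted brains (log2 fold change 0.58 ± 0.15, edgeR adjusted p = 0.027) and 1.44-fold with depletion in occluded brains (0.53 ± 0.15, adjusted p = 0.031). Occlusion with microglia present gave -0.30 ± 0.14 and depletion in sham brains -0.35 ± 0.14, neither called (edgeR adjusted p = 0.21 and 0.11). The interaction was 0.88 ± 0.21, with an adjusted p of 0.2 by edgeR and 0.022 by DESeq2. Without tMCAO_MG_DE replicate 1 or 2 the 2 calls were lost (edgeR adjusted p = 0.13 to 0.15), and the first was also lost without sham_MG_DE replicate 1 (0.054). Pfkfb2 and Pfkfb4, its relatives, and Pdk1, a kinase that inhibits pyruvate dehydrogenase, ranged from -0.32 to 0.23 and were not called.

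Glucose transporters were higher in occluded brains after depletion. Slc2a1 encodes GLUT1, the carrier of the blood-brain barrier and of glia. It had 247.3 and 238.8 CPM in tMCAO_MG_DE, 131.6, 166.5, 153.6 and 179.4 CPM in tMCAO_MG_CON, 150.8, 110.7, 153.8 and 166.2 CPM in sham_MG_DE and 114.6, 144.6 and 119.1 CPM in sham_MG_CON. Both tMCAO_MG_DE libraries lay above all 11 others, and the other 3 groups overlapped one another. Slc2a1 rose 1.67-fold after occlusion in depleted brains (log2 fold change 0.74 ± 0.15, edgeR adjusted p = 0.0079) and 1.54-fold with depletion in occluded brains (0.62 ± 0.15, adjusted p = 0.014). With microglia present occlusion gave 0.32 ± 0.14 (not called, edgeR adjusted p = 0.17), and the interaction was 0.42 ± 0.20 (not called, adjusted p = 0.53). Both calls were lost without tMCAO_MG_DE replicate 1 (edgeR adjusted p = 0.07 and 0.086) or replicate 2 (0.061 and 0.095).

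Slc2a3 encodes GLUT3, the main neuronal carrier. It had 195.5 and 186.3 CPM in tMCAO_MG_DE, against 165.3, 134.0, 155.1 and 152.7 CPM in sham_MG_DE, and rose by 0.33 ± 0.10 on the log2 scale (edgeR adjusted p = 0.04). It had 157.9 to 197.8 CPM in tMCAO_MG_CON, against 165.8 to 175.2 CPM in sham_MG_CON, where the value was 0.00 ± 0.09. The call was lost without any 1 of 9 libraries, both of tMCAO_MG_DE (edgeR adjusted p = 0.22 and 0.15), tMCAO_MG_CON replicate 4, sham_MG_DE replicates 2, 3 and 4 and all of sham_MG_CON (0.051 to 0.081). The lactate carriers Slc16a1 (MCT1) and Slc16a3 (MCT4) were not called in any comparison, with log2 fold changes from -0.31 to 0.64. Slc16a3 had 1.20 to 4.70 CPM over all libraries, on 21 to 98 counts. Of 9 endothelial markers, 4 (Cldn5, Pecam1, Cdh5 and Ly6c1) were called higher in occluded than in sham brains after depletion, and 3 had negative values. With depletion in occluded brains 1 (Tek) was called lower, 5 values being positive and 4 negative. The list summed to 333.1 to 351.8 CPM in tMCAO_MG_DE, against 248.3 to 324.5 CPM in sham_MG_DE. In tMCAO_MG_CON it summed to 315.0 to 396.7 CPM. The part of endothelial transcripts in the Slc2a1 differences was not tested.

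Among the oxygen-sensing genes, Egln1, Epas1 and Hif1a were called and Egln3 was not. Egln1 encodes PHD2, the main prolyl hydroxylase that marks hypoxia-inducible factors. It had 104.6 and 115.3 CPM in tMCAO_MG_DE, against 82.5 to 92.7 CPM in tMCAO_MG_CON, 83.3 to 99.2 CPM in sham_MG_DE and 86.9 to 93.4 CPM in sham_MG_CON, so that both libraries lay above all others. It rose by 0.31 ± 0.09 on the log2 scale after occlusion in depleted brains (edgeR adjusted p = 0.033) and by 0.33 ± 0.09 with depletion in occluded brains (adjusted p = 0.02). The first call was lost without tMCAO_MG_DE replicate 1 (edgeR adjusted p = 0.084) or 2 (0.28) and without sham_MG_DE replicates 2, 3 or 4 (0.059 to 0.069). The other was lost without tMCAO_MG_DE replicate 1 (0.054) or 2 (0.21).

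Epas1 encodes HIF-2alpha, a factor subunit abundant in endothelium. It had 214.0 and 190.1 CPM in tMCAO_MG_DE, against 173.4, 158.0, 156.2 and 150.4 CPM in sham_MG_DE, and 181.5 to 198.9 CPM in tMCAO_MG_CON, against 160.8 to 173.6 CPM in sham_MG_CON. Neither pair overlapped. Epas1 rose by 0.34 ± 0.07 on the log2 scale after occlusion in depleted brains (edgeR adjusted p = 0.012), a call lost without tMCAO_MG_DE replicate 1 (0.25, adjusted p = 0.16). With microglia present the value was 0.17 ± 0.07 and was not called (edgeR adjusted p = 0.14), although limma on log2(FPKM + 1) gave 0.26 with an adjusted p of 0.014. Of the 9 endothelial markers, 6 had positive and 3 negative log2 fold changes in the depleted pair, and their part was not tested.

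Hif1a encodes HIF-1alpha, whose activity is set mainly by protein stability. It had 87.6 and 91.3 CPM in tMCAO_MG_DE, 91.6, 83.4, 92.6 and 82.1 CPM in tMCAO_MG_CON, 85.3, 84.5, 95.1 and 85.0 CPM in sham_MG_DE and 71.5, 73.8 and 76.5 CPM in sham_MG_CON. The sham_MG_CON libraries lay below all 10 others, which overlapped one another. Hif1a rose by 0.24 ± 0.07 on the log2 scale with occlusion in control brains (edgeR adjusted p = 0.045) and by 0.24 ± 0.07 with depletion in sham brains (adjusted p = 0.038). The other pairs gave 0.03 ± 0.08 each (not called, edgeR adjusted p = 0.82 and 0.79). The first call was lost without any 1 of 10 libraries, that is all but tMCAO_MG_CON replicate 4 and sham_MG_DE replicates 1 and 3 (edgeR adjusted p = 0.054 to 0.15). The call with depletion was lost without either tMCAO_MG_DE library, sham_MG_DE replicates 2, 3 or 4 or any sham_MG_CON library (0.054 to 0.13). Of 11 monocyte and macrophage markers tested, 6 were called higher with occlusion in control brains, and 8 were called higher and 1 lower with depletion in sham brains. Their part in the Hif1a differences was not tested. Egln3 (PHD3, itself a hypoxia-induced gene) had 4.73 to 12.9 CPM over all libraries and log2 fold changes from -0.45 to -0.11.

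The 5 further hypoxia targets gave 1 call among them. P4ha1, a collagen prolyl 4-hydroxylase subunit, had 39.2, 26.7, 24.5 and 26.2 CPM in sham_MG_DE, against 46.6, 38.9 and 42.8 CPM in sham_MG_CON, and overlapped only through sham_MG_DE replicate 1. It fell by 0.55 ± 0.16 on the log2 scale (edgeR adjusted p = 0.047), a call lost without any 1 of 10 libraries, that is all but tMCAO_MG_CON replicates 2 and 3 and sham_MG_DE replicate 1 (0.051 to 0.15). With depletion in occluded brains P4ha1 gave -0.51 ± 0.19 and was not called (edgeR adjusted p = 0.082), but was called without tMCAO_MG_CON replicate 2 (0.033) or sham_MG_DE replicate 1 (0.026). Vegfa, the main angiogenic factor, had 29.7 and 26.9 CPM in tMCAO_MG_DE, 34.7 to 45.8 CPM in tMCAO_MG_CON, 27.9 to 51.2 CPM in sham_MG_DE and 41.5 to 62.3 CPM in sham_MG_CON. All 4 of its log2 fold changes were negative, from -0.56 ± 0.19 with depletion in sham brains (not called, edgeR adjusted p = 0.073) to -0.33 ± 0.22 with occlusion after depletion (adjusted p = 0.37). With depletion in sham brains Vegfa was called lower by DESeq2 (adjusted p = 0.037) and without sham_MG_DE replicate 1 (-0.79, edgeR adjusted p = 0.0026). With depletion in occluded brains it was called lower with only the groups compared (-0.45, edgeR adjusted p = 0.041, against 0.17 with all groups). Adm, which encodes the vasodilator adrenomedullin, had 3.47 and 4.41 CPM in tMCAO_MG_DE, against 2.54, 2.00, 2.32 and 2.00 CPM in sham_MG_DE, without overlap. Its log2 fold change was 0.83 ± 0.28 and was not called (edgeR adjusted p = 0.069), although it was at 0.023 without sham_MG_CON replicate 1. Bnip3 (a mitophagy receptor) had 74.8 to 97.7 CPM over all libraries, with log2 fold changes from -0.17 to 0.09. Ankrd37, an ankyrin repeat gene induced by hypoxia, gave -0.55 ± 0.20 with occlusion in control brains and -0.58 ± 0.20 with depletion in sham brains, neither called (edgeR adjusted p = 0.11 and 0.08).

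**Figure D4:**
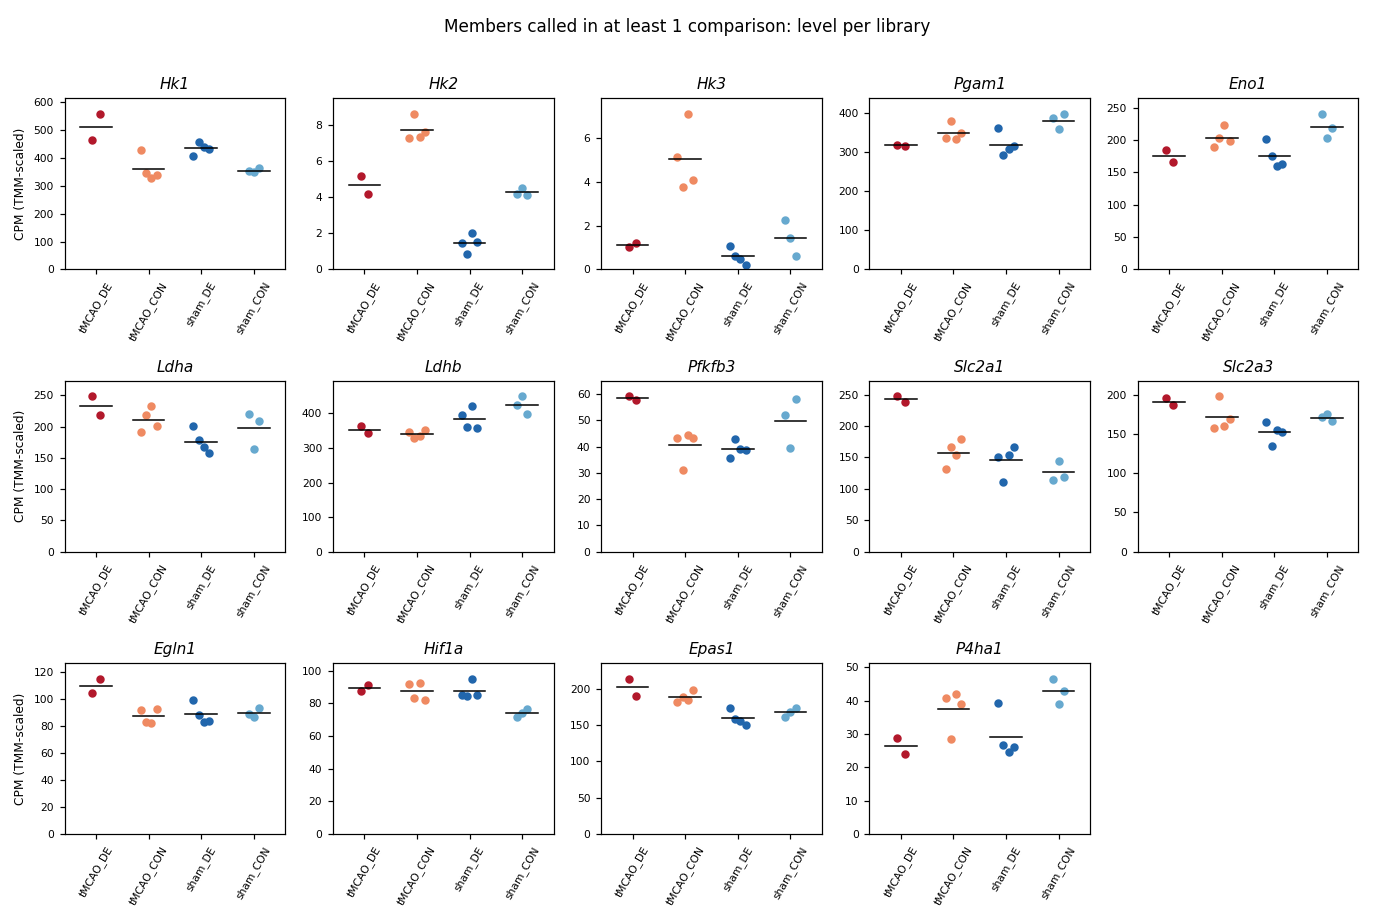
Level per library, in TMM-scaled CPM, of the 14 members called in at least 1 comparison, with a line at each group mean, and groups ordered tMCAO_MG_DE, tMCAO_MG_CON, sham_MG_DE, sham_MG_CON. The 2 tMCAO_MG_DE libraries lie above all others for Slc2a1 (247.3 and 238.8 CPM), Hk1 and Egln1, and the sham_MG_CON libraries lie below all others for Hif1a (71.5 to 76.5 CPM).

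No member was called for the interaction, where 0.0472% of all genes were. By edgeR's quasi-likelihood test 5 members had an unadjusted p under 0.05, namely Hk2, Pfkfb3, Pfkfb4, Slc2a3 and Egln1, all with positive values from 0.33 to 0.88. Over all genes 1647 of 16940 had an unadjusted p under 0.05 by the same test, whatever their sign. DESeq2 called 1, Pfkfb3, beside 0.655% of all genes. The median interaction was 0.12 over the members and -0.02 over all genes, and 27 of 35 values were positive, against 7910 of 16940 over all genes. The larger number of members called for occlusion after depletion than with microglia present is therefore not a tested difference.

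Other genes of the same pathways were read from fixed lists, chosen with earlier results of these data known. After occlusion with microglia present, 5 of 33 tested further hypoxia-response genes were called higher and 1 lower, 2 of 8 pentose phosphate genes higher, and 1 of 13 glycogen genes higher. Of 16 other glycolysis isoforms 1 was called higher and 1 lower, and of 14 other sugar and monocarboxylate carriers 1 lower. Over all genes 5.14% were called higher and 3.31% lower, and no list was tested against them. Of 13 genes of pyruvate entry to mitochondria 0 were called by edgeR, with 2 at an unadjusted p under 0.05. Hmox1 had 40.7, 77.1, 120.0 and 34.7 CPM in tMCAO_MG_CON, against 6.12, 4.43 and 6.16 CPM in sham_MG_CON (log2 fold change 3.61 ± 0.39, edgeR adjusted p = 0.00017). P4hb, which encodes protein disulphide isomerase, rose by 0.51 ± 0.09 on the log2 scale (edgeR adjusted p = 0.0039) and Pgd, an enzyme of the pentose phosphate pathway, rose by 0.51 ± 0.08 (adjusted p = 0.0025). Hif1an, the asparagine hydroxylase that restrains these factors, fell by 0.25 ± 0.07 (edgeR adjusted p = 0.036), a call lost in 10 of 22 alternatives. The calls of Hmox1, P4hb and Pgd held in all 22.

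After occlusion in depleted brains, 6 of 33 further hypoxia-response genes were called higher and 1 lower, and 2 of 13 genes of pyruvate entry were called higher. The counts were 1 higher and 1 lower of 16 other glycolysis isoforms, 1 higher of 8 pentose phosphate genes, and 1 higher and 2 lower each of 13 glycogen genes and of 14 carriers, beside 6.59% of all genes called higher and 5.84% lower. Hmox1 had 55.9 and 60.4 CPM in tMCAO_MG_DE, against 4.92, 5.59, 4.39 and 4.73 CPM in sham_MG_DE (log2 fold change 3.56 ± 0.38, edgeR adjusted p = 0.00021). Angptl4, a secreted lipase inhibitor induced by hypoxia and fasting, had 17.3 and 24.8 CPM in tMCAO_MG_DE, against 2.65, 3.73, 6.64 and 8.27 CPM in sham_MG_DE (1.99 ± 0.37, edgeR adjusted p = 0.0053). Pdk4, a kinase that inhibits pyruvate dehydrogenase, had 28.8 and 42.8 CPM in tMCAO_MG_DE, against 13, 13.2, 16.9 and 21.0 CPM in sham_MG_DE (1.16 ± 0.23, edgeR adjusted p = 0.0072). The Angptl4 and Pdk4 calls were lost without tMCAO_MG_DE replicate 2.

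With depletion in sham brains, where 6.85% of all genes were called higher and 4.49% lower, 1 of 14 other sugar and monocarboxylate carriers was called higher and 4 lower, 2 of 13 glycogen genes higher and 2 lower, 1 of 33 further hypoxia-response genes higher and 2 lower, and 0 of 8 pentose phosphate genes (edgeR, 1 at an unadjusted p under 0.05). The other glycolysis isoforms and the genes of pyruvate entry gave 1 higher and 1 lower each. In occluded brains, where 9.36% of all genes were called higher and 9.26% lower, the counts were 2 higher and 5 lower of 14 carriers, 2 higher and 4 lower of 13 glycogen genes, 6 higher and 2 lower of 33 hypoxia-response genes, and 1 lower of 8 pentose phosphate genes. Of the genes of pyruvate entry 3 were higher, and of the other glycolysis isoforms 1 was lower. Slc16a7, which encodes the monocarboxylate carrier MCT2, had 5.17 and 5.06 CPM in tMCAO_MG_DE, against 13.6, 10.5, 12.3 and 12.6 CPM in tMCAO_MG_CON (log2 fold change -1.26 ± 0.24, edgeR adjusted p = 0.0053). Kdm3a, a histone demethylase induced by hypoxia, had 95.5 and 102.2 CPM in tMCAO_MG_DE, against 52.3, 51.4, 51.3 and 57.6 CPM in tMCAO_MG_CON (0.89 ± 0.10, edgeR adjusted p = 0.00037). In sham brains Kdm3a had 68.6 to 87.9 CPM in sham_MG_DE, against 50.9 to 61.7 CPM in sham_MG_CON (0.45 ± 0.09, edgeR adjusted p = 0.012). That call was lost with only the groups compared, without sham_MG_CON replicate 1 (edgeR adjusted p = 0.057) and without both libraries high in neutrophil markers. The Kdm3a call in occluded brains held in all 22 alternatives, and that of Slc16a7 was lost without tMCAO_MG_DE replicate 2. Slc16a6, a carrier of the same family, fell by 0.49 ± 0.09 in sham brains (edgeR adjusted p = 0.0094).

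**Figure D5:**
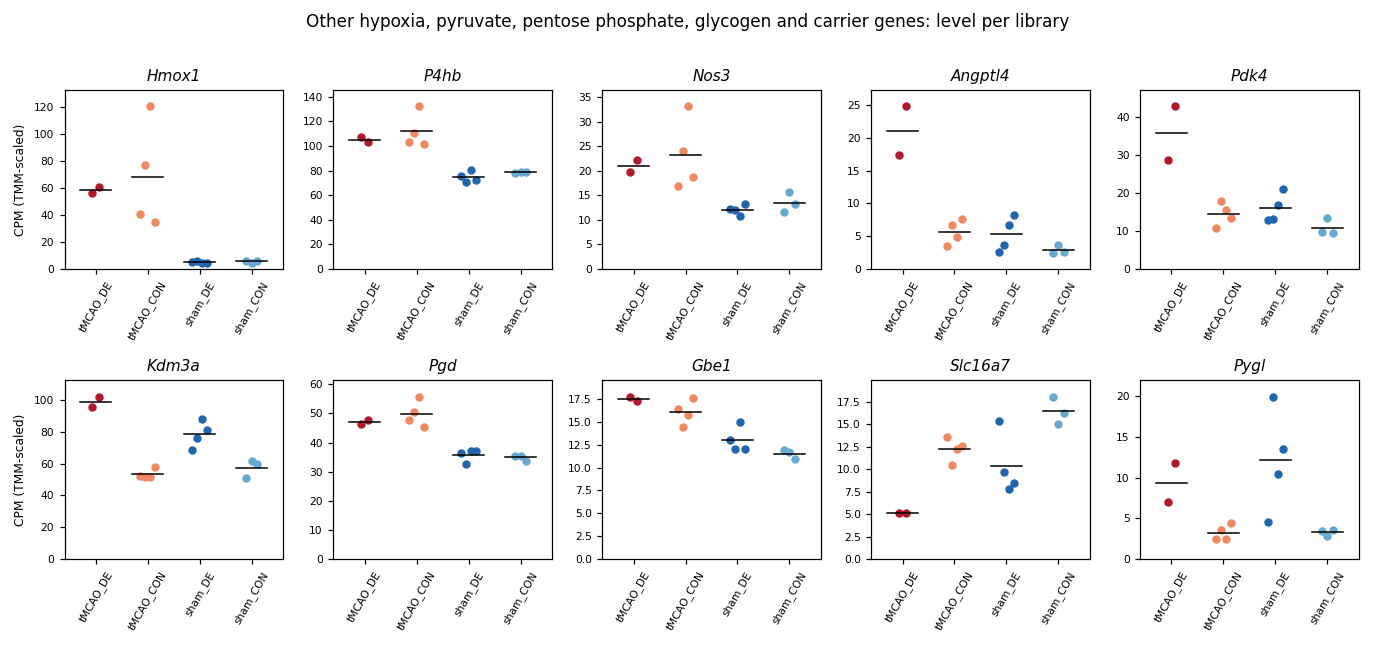
Level per library, in TMM-scaled CPM, of 10 genes of the further lists, with a line at each group mean and groups ordered tMCAO_MG_DE, tMCAO_MG_CON, sham_MG_DE, sham_MG_CON. Hmox1, P4hb and Pgd are higher in both occluded groups, from 34.7 to 120.0 CPM for Hmox1, while Angptl4 and Pdk4 are highest in tMCAO_MG_DE and Slc16a7 is lowest there.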

How the data were processed

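Total RNA from mouse brain was sequenced as paired-end libraries, per the labels' protocols. The authors deposited 4 tables, 1 per group, each holding, per the file headers, a raw count for every gene in every library beside an FPKM value scaled to gene length and library size. The tools named in the submitters' processing notes are Cuffdiff and Cufflinks 2.1.1, with build mm10. Not given in the sources used here: aligner, annotation, gene lengths behind FPKM, counting tool and strand setting. Date-like symbols were dropped, repeated symbols were summed, and all per-sample columns were mapped.

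Counts of 21056 genes went through filterByExpr, leaving 16940, TMM scaling and 1 edgeR 4.0.16 quasi-likelihood fit of 4 group means over 13 libraries (R 4.3.3, biological coefficient of variation 15.2%), tested 2-sided with Benjamini-Hochberg adjustment. The fit was tested on simulated data. All 35 members passed the filter. Alternatives used DESeq2 1.42.0, limma 3.58.1 on FPKM, other filters and fits leaving out libraries. Members, lists and settings were chosen with earlier results of these data known. All members are named, and from each other list up to 4 called genes with the largest change and a mean of at least 1 FPKM in a compared group, a choice from which the text names some. Labels give each library its own animal identifier, so libraries were taken as separate animals, and replicate numbers do not pair them. Genome positions and 50-base windows came from the GRCm38 annotation, promoters from RefSeq (GRCm38.p6).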

Additional observations from a re-analysis of the deposited data

Results flagged for a closer look

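Over 70 groups of 4 libraries (35 members in tMCAO_MG_CON and sham_MG_DE), 4 had 1 library far from the other 3. Chance alone marks about 1 in 20 groups, but these groups share libraries and are not independent. In sham_MG_DE, Gpi1 stood at 463.7 CPM in replicate 1, against 337.5 to 357.8 CPM in the others. P4ha1 stood at 39.2 CPM in the same library, against 24.5 to 26.7 CPM. That library also stood apart over all genes tested. On the first principal component, the main axis of variation between libraries (32.6%), it lay at 5, against -31.9 to -48 in the other sham_MG_DE libraries. Hif1a stood at 95.1 CPM in sham_MG_DE replicate 3, against 84.5 to 85.3 CPM. In tMCAO_MG_CON, Pfkfb3 stood at 31.2 CPM in replicate 2, against 43.1 to 44.5 CPM. No cause was tested.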

How the results depend on the processing

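No called value changed sign under any alternative. The share of all genes called in the same fits follows each count in brackets. With occlusion in control brains (4 in the report, 8.44%) the counts of called members were 2 with the replicate block (5.66%). Without both neutrophil-high libraries the count was 2 (5.67%), and leaving out 1 library outside tMCAO_MG_DE gave 1 to 4 (3.33% to 10.7%). With occlusion after depletion (7, 12.4%) the counts were 3 with only the groups compared (6.91%) and 4 with the replicate block (7.92%). Without both neutrophil-high libraries the count was 4 (9.3%), and leaving out 1 library outside tMCAO_MG_DE gave 4 to 7 (9.91% to 12.4%). With depletion in sham brains (5, 11.3%) the counts were 8 by DESeq2 (13.5%), 2 with only the groups compared (4.05%) and 2 with the replicate block (4.86%). Without both neutrophil-high libraries the count was 1 (1.3%), and leaving out 1 library outside tMCAO_MG_DE gave 1 to 11 (3.49% to 22%). With depletion in occluded brains (6, 18.6%) the counts were 4 with the replicate block (13.7%) and 5 to 7 leaving out 1 library outside tMCAO_MG_DE (13.2% to 22.9%). For the interaction DESeq2 called 1 (0.655%), against 0 by edgeR (0.0472%). The cause was not tested, apart from fewer libraries in the fits that leave some out. Deviations of same-numbered libraries from their group means had correlations of -0.064 to 0.106 over 16 pairs, 1 of them over 0.1. Of 13 libraries, 4 correlated best with their own number. Deviations cancel within a group, exactly so in tMCAO_MG_DE with its 2 libraries, so the pairs are not independent. The check therefore cannot settle whether replicate numbers pair libraries, and the block was used as an alternative only. Fits that leave a group with 1 library assume that it varies like the others. Hk3 and Hk2 rest on few counts, which limits small changes in them. Each SE of a log2 fold change is its absolute value divided by the square root of edgeR's quasi-likelihood F. It covers the spread between these libraries, estimated over all groups together.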
